A study of Mus musculus with 10 samples.

Results

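The microRNA hairpin loci described here are 36 rows of a gene count table that holds 38720 gene symbols. They were selected on their raw counts: a symbol had to begin with Mir and a digit, not end in hg, and reach at least 20 counts summed over all 10 libraries. The table held 643 such microRNA symbols, of which 433 had no read in any library. The 9 let-7 hairpin rows carry other symbols and are not among the 36. The libraries were made from tail buds dissected from E12.5 mouse embryos, the caudal tip where the trunk and tail are still being laid down, in a study of the Lin28/let-7 pathway and the lengthening of the caudal body axis. The Lin28a-induced group (replicates 2, 3, 4 and 5) carried TRE-Lin28a, RLSL-rtTA and FoxD1-Cre and was treated with doxycycline. TRE-Lin28a is a doxycycline-responsive Lin28a transgene, RLSL-rtTA the Cre-activated transactivator it needs, and FoxD1-Cre places the recombinase in cells with a history of FoxD1 expression. The no-Cre group (replicates 6, 7 and 8) carried TRE-Lin28a and RLSL-rtTA without Cre and also received doxycycline. The wild-type group (replicates 1, 2 and 3) has labels that name neither an allele nor doxycycline. All 3 groups are labelled E12.5, and the labels give no strain. Nothing in the labels says that the libraries are from separate embryos, and p-values here cover only the spread between libraries. In bulk tissue, fewer cells of a type and less RNA per cell cannot be told apart.

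MicroRNAs are transcribed as long primary transcripts, often inside introns of other genes. Drosha and Dgcr8 cut a hairpin out of the primary transcript, Dicer trims it to a short duplex, and a strand of the duplex guides an Argonaute protein to messenger RNAs through its seed. Lin28a and Lin28b bind let-7 precursors, at a GGAG motif in the loop, and block their maturation. Most other microRNAs are not known to be Lin28 targets. Among them, miR-196 is tied to the body axis: its genes lie inside the Hox clusters, and it restrains Hox transcripts such as Hoxb8.

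The sequences below are those on which the results turn, from RefSeq on GRCm38.p6. Mature sequences of 32 loci were matched, and the 49 sequences had 49 distinct seeds, so no seed was shared between loci. No locus carried the let-7 seed GAGGUAG. The closest relation was that of miR-196a-5p, the product of the most counted locus. Its seed, in capitals at bases 2 to 8, stands in let-7a at bases 3 to 9, shifted by a base, and is in capitals there too.
mmu-miR-196a-5p: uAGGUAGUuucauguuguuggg
mmu-let-7a-5p: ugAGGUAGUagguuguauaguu
The next 4 are hairpins, shown for the locus that differed between groups with the most reads, the red blood cell locus, a locus beside let-7 and the tested locus with the lowest p for Lin28a-induced against no-Cre. Capitals mark the mature products.
Mir196a-1: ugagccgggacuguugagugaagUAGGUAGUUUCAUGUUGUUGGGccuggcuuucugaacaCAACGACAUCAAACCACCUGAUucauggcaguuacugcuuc
Mir451: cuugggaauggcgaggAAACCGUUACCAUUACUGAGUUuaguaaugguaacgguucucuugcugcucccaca
Mir100: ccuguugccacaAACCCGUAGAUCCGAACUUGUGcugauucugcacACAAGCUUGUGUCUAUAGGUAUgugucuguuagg
Mir5133: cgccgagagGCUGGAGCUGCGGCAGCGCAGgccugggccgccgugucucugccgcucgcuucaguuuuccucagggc
The last 2 are mature sequences with the seed in capitals, from a locus with an intronic hairpin that stood high in 1 wild-type library and from a locus of the neural list.
mmu-miR-186-5p: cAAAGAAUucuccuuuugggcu
mmu-miR-7a-5p: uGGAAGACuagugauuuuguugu
The letters GGAG, searched over the whole hairpin and not only its loop, on its own strand, occurred in 16 of the 30 hairpins compared (53.3%). Mir5133 was among them, with its GGAG inside the mature product. They occurred in 447 of 1005 mouse hairpins in the RefSeq table (44.5%) and in 9 of 11 let-7 hairpins (81.8%). Mir196a-1, Mir451 and Mir100 had no GGAG. A match is a run of letters and not a measured binding site.

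Library totals ran from 21762668 to 39517946 counts, and the 36 loci together took between 285 and 509 counts of a library. Values in CPM below are counts scaled to a common library size with TMM factors. Lin28a stood at 688 ± 66.3 CPM in the Lin28a-induced libraries (SD, n = 4), 4.07 ± 1.26 CPM in the no-Cre libraries (n = 3) and 5.44 ± 0.887 CPM in the wild-type libraries (n = 3). Lin28a was thus 167-fold higher than in no-Cre and 126-fold higher than in wild type (edgeR adjusted p = 2.95e-07 and 7.81e-09), with reads of the transgene and of the endogenous gene counted together. The wild-type libraries differed from the others in composition. Mitochondrially encoded genes took 0.446 to 0.69% of the Lin28a-induced counts, 0.525 to 0.61% of the no-Cre counts and 1.85 to 2.69% of the wild-type counts. All 10 tail bud markers examined, T, Tbx6 and Cdx2 among them, were detected in every group. Their summed levels were 1840 to 2220 CPM in Lin28a-induced and 1930 to 2120 CPM in no-Cre libraries. In wild type they summed to 1740 CPM in replicates 1 and 3 and to 950 CPM in replicate 2. Against wild type, 3 of the 10 were higher in Lin28a-induced and 4 in no-Cre libraries, and none was lower. Of 10 endothelial markers, all 10 were higher against wild type in both other groups, with summed levels of 333 to 453 CPM in Lin28a-induced, 352 to 394 CPM in no-Cre and 87.2 to 175 CPM in wild-type libraries. The 9 macrophage markers in the table summed to 99.3 to 123 CPM in Lin28a-induced, 85.3 to 101 CPM in no-Cre and 37.5 to 77.3 CPM in wild-type libraries, with 7 of 9 higher than wild type in Lin28a-induced and 4 higher and 1 lower in no-Cre libraries. The 10 neuron markers summed to 30.2 to 33.6 CPM in Lin28a-induced, 27.3 to 34.5 CPM in no-Cre and 60.9 to 78 CPM in wild-type libraries, and of the 8 tested, 1 was higher and 3 were lower in each comparison with wild type. Over all tested genes, 49.3% differed between Lin28a-induced and wild type at an edgeR adjusted p below 0.05. Between no-Cre and wild type the share was 42.5%. The part of these marker genes in the differences from wild type below was not tested.

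The 36 loci had hairpins of 63 to 121 bases, and a read was 75 bases long. Mature microRNAs, of 20 to 26 bases here, are shorter than a read, so these counts report RNA that covers the hairpin locus and are not levels of mature microRNA. By GENCODE M21 (GRCm38), 17 hairpins lay in an intron of a gene on the same strand and 5 in an exon on the same strand. A further 6 lay in an intron of a gene on the opposite strand, 2 lay between genes, 5 overlapped only genes that have no row in the table, and Mir1957 could not be placed. Reads of an intronic hairpin and of its host's unspliced RNA cannot be told apart in this table. The library kit keeps strand, but the strand setting of the counting is not given in the sources used here, so the same holds for a gene on the opposite strand.

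**Figure D1:**
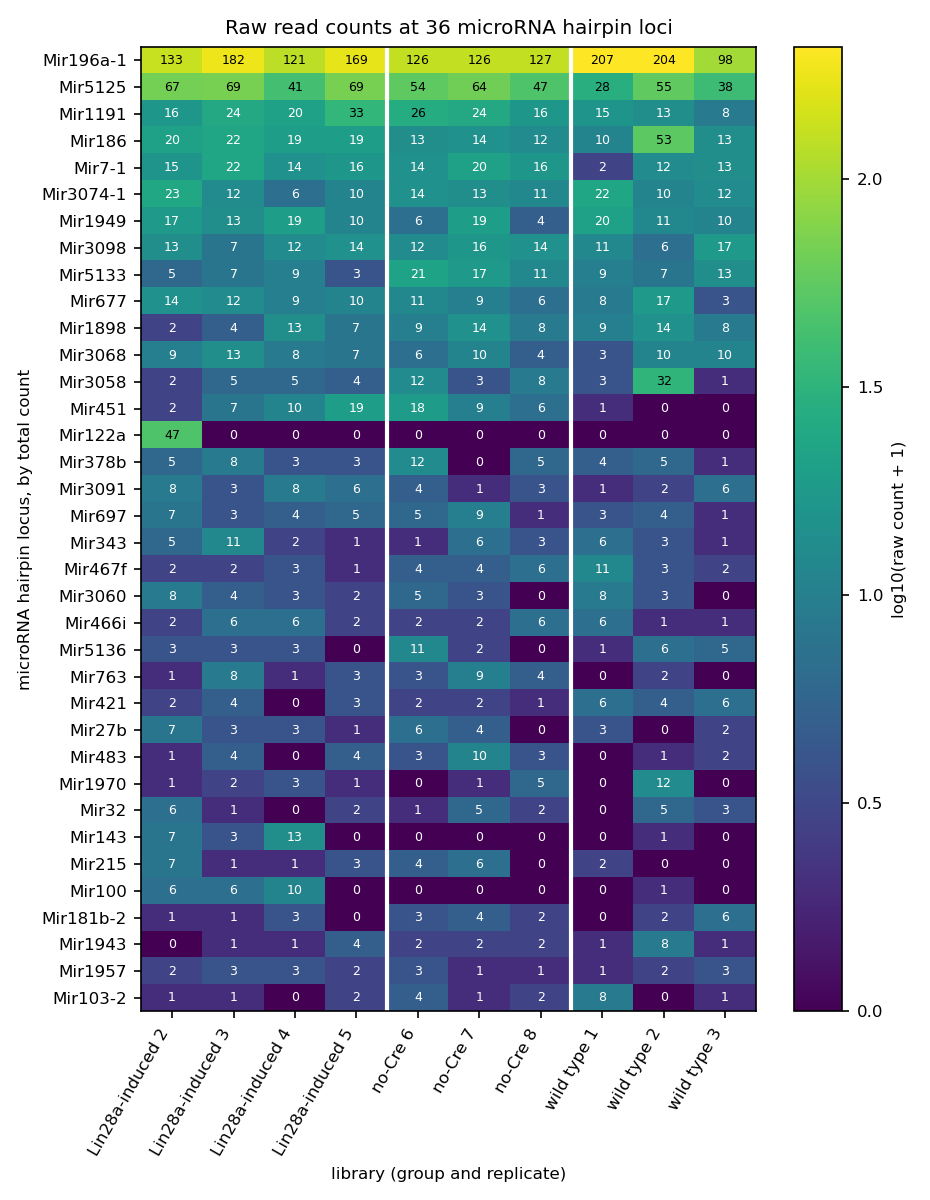
Raw read counts of the 36 microRNA hairpin loci (rows, by total count) in each of the 10 libraries (columns, by group and replicate), with colour on a log10(count + 1) scale. Mir196a-1 has 98 to 207 counts in every library, Mir122a has 47 counts in Lin28a-induced replicate 2 and 0 elsewhere, and most rows hold fewer than 20 counts in every library.

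Mir196a-1 had the most reads of the 36, 1493 in all. Mir5125 followed with 532 reads, then Mir1191 and Mir186 with 195 each and Mir7-1 with 144. Scaled to hairpin length, Mir196a-1 and Mir5125 kept their places and the order below them changed. Levels averaged over the 10 libraries were 49.2 CPM per kilobase for Mir196a-1, 21.9 for Mir5125, 9.42 for Mir186 and 6.21 for Mir1949. Mir1191 stood at 5.1 and Mir7-1 at 4.31. The loci that entered by the narrowest margin were Mir103-2 with 20 counts, Mir1957 with 21, and Mir1943 and Mir181b-2 with 22 each. Just below the minimum stood Mir148a and Mir196a-2 with 19 counts each and Mir1950 with 18. Leaving out Mir196a-1, the set summed to 6.76 to 11 CPM in Lin28a-induced, 7.17 to 9.05 CPM in no-Cre and 8.03 to 12.4 CPM in wild-type libraries, and these ranges overlap. A locus reached its highest CPM in wild-type replicate 1, 2 or 3 in 6, 9 and 7 cases. The wild-type libraries also had the lowest totals, 21762668 to 25316537 counts, so a single read weighs more in CPM there. The same share over all genes was not computed.

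Mir196a-1 lies on the plus strand at chr11:96265164-96265265, between genes of the Hoxb cluster, 6191 bases upstream of Hoxb9 and 67716 bases from Hoxb13. It held 133, 182, 121 and 169 raw counts in Lin28a-induced replicates 2 to 5. It held 126, 126 and 127 in no-Cre replicates 6 to 8, and 207, 204 and 98 in wild-type replicates 1 to 3. Scaled, the Lin28a-induced libraries stood at 4.39, 5.28, 3.79 and 4.29 CPM, the no-Cre libraries at 3.28, 3.75 and 4.36 CPM and the wild-type libraries at 8.23, 8.27 and 4.50 CPM. Wild-type replicates 1 and 2 were high, while wild-type replicate 3 lay within the Lin28a-induced range and just above the highest no-Cre library. Group means were 4.44 ± 0.62 CPM (SD, n = 4) in Lin28a-induced, 3.80 ± 0.538 CPM (n = 3) in no-Cre and 7 ± 2.17 CPM (n = 3) in wild-type libraries. Mir196a-1 was lower in Lin28a-induced than in wild-type libraries (log2 fold change -0.66 ± 0.20 SE, edgeR adjusted p = 0.0154). It was also lower in no-Cre than in wild-type libraries (-0.89 ± 0.22, edgeR adjusted p = 0.00566). Against no-Cre, the Lin28a-induced libraries did not pass the threshold of 0.05 (0.23 ± 0.21, edgeR adjusted p = 0.656). Without wild-type replicate 1 the Lin28a-induced value was -0.53 with an adjusted p of 0.0704, and without wild-type replicate 2 it was -0.53 with an adjusted p of 0.056. The no-Cre value passed in all 13 alternatives, at -1.12 to -0.76.

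Of 4 genes of the Hoxb cluster set beside it, Hoxb8 was higher and Hoxb4 lower than wild type in Lin28a-induced libraries, and Hoxb9 and Hoxb13 did not pass. Of all genes, 49.3% were called in that comparison. Further genes of the cluster, Hoxb3 and Hoxb7, averaged 33.3 and 34.9 CPM in Lin28a-induced libraries. They averaged 33.6 and 31 CPM in no-Cre and 32 and 28.9 CPM in wild-type libraries. Hoxb9, the posterior Hox gene downstream, stood at 198 ± 12.4 CPM (n = 4) in Lin28a-induced, 197 ± 10.7 CPM (n = 3) in no-Cre and 164 ± 31.7 CPM (n = 3) in wild-type libraries, and it passed in neither comparison with wild type (0.27 ± 0.11, edgeR adjusted p = 0.0553, for Lin28a-induced and 0.26 ± 0.12, adjusted p = 0.0918, for no-Cre). Hoxb13, which marks the end of axis growth, stood at 0.22 ± 0.20 for Lin28a-induced and 0.25 ± 0.22 for no-Cre against wild type (edgeR adjusted p = 0.402 and 0.381). Hoxb8, a known miR-196 target, was higher in Lin28a-induced than in wild-type libraries (29.3 ± 3.27 CPM, n = 4, against 22.7 ± 5.43 CPM, n = 3), at 0.37 ± 0.14 with an edgeR adjusted p of 0.0466. Its no-Cre value of 0.32 ± 0.15 did not pass (edgeR adjusted p = 0.102). Single Lin28a-induced libraries spanned 25.6 to 33.2 CPM of Hoxb8. Wild-type replicate 3 (26.5 CPM) fell inside that span and wild-type replicate 1 (25 CPM) just under it. Whether the Hoxb8 call holds without wild-type replicate 2 was not tested, and neither was a link between Hoxb8 and Mir196a-1. Hoxb4, an anterior gene of the same cluster, was lower than wild type in both other groups, with means of 42.4 CPM in Lin28a-induced, 38.5 CPM in no-Cre and 50.6 CPM in wild-type libraries (-0.26 ± 0.09 for Lin28a-induced and -0.40 ± 0.10 for no-Cre, edgeR adjusted p = 0.0352 and 0.00657). For Hoxb9, Hoxb13 and Hoxb8 wild-type replicate 2 was the lowest library, at 128 CPM of Hoxb9, 153 CPM of Hoxb13 and 16.5 CPM of Hoxb8. The second locus that encodes miR-196a-5p, Mir196a-2, held 0 to 4 counts in a library. Mir10b and Mir615, also of the Hox clusters, held 9 and 15 counts in all.

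**Figure D2:**
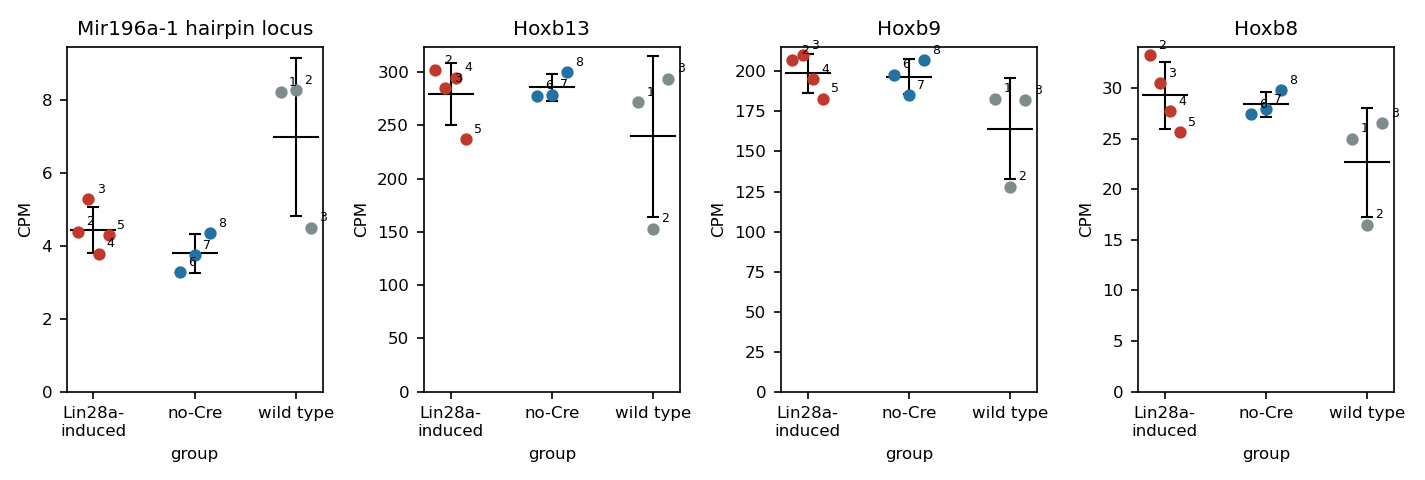
CPM of the Mir196a-1 hairpin locus and of Hoxb13, Hoxb9 and Hoxb8 in each library (points, numbered by replicate), with group means and SD (bars), for Lin28a-induced (n = 4), no-Cre (n = 3) and wild-type (n = 3) libraries. Mir196a-1 reaches 8.23 and 8.27 CPM in wild-type replicates 1 and 2, while wild-type replicate 2 is the lowest library for each of these 3 Hoxb genes.

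Lin28a-induced and no-Cre libraries differ by the FoxD1-Cre allele and thus by the induction of Lin28a. Of the 36 loci, 12 held enough reads for the fit across 16340 genes, which keeps genes by their counts. None of the 12 passed with edgeR or with DESeq2, while 2.91% of all tested genes did with edgeR. At an unadjusted p under 0.05 there was 1 of the 12, Mir5133, and 2658 of all genes. A second fit on the 19479 genes of at least 20 counts gave a value to all 36, and again none passed, against 2.11% of its genes; 3 of the 36 had an unadjusted p under 0.05. The 12 fold changes ran from -1.41 to 0.61 on the log2 scale with standard errors of 0.21 to 0.54, and their median was 0.10, beside -0.00 for all genes. The libraries of both groups did not overlap in CPM for 3 of 36 loci, namely Mir186, which was higher in every Lin28a-induced library, and Mir467f and Mir5133, which were lower. The share of all genes without overlap was 20.6%.

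Mir5133, which lies in an exon of Glce at chr9:62122518-62122594 on the minus strand, had the largest difference of the 12 between these groups. Glce encodes an epimerase of heparan sulfate synthesis. The hairpin held 5, 7, 9 and 3 counts in Lin28a-induced replicates 2 to 5, 21, 17 and 11 in no-Cre replicates 6 to 8, and 9, 7 and 13 in wild-type replicates 1 to 3. Every Lin28a-induced library lay below the lowest no-Cre library in CPM (0.0762 to 0.282 against 0.377 to 0.547) and below the lowest wild-type library (0.284). The difference from no-Cre was -1.41 ± 0.45 (edgeR adjusted p = 0.119) and from wild type -1.18 ± 0.48 (edgeR adjusted p = 0.0582), neither past the threshold. In a fit of the Lin28a-induced and no-Cre libraries alone it passed (-1.42, edgeR adjusted p = 0.0469). That was the only 1 of 12 alternatives to pass against no-Cre, where the highest edgeR adjusted p was 0.355. Without Lin28a-induced replicate 4 or wild-type replicate 2 it passed against wild type (-1.46, adjusted p = 0.0385, and -1.39, adjusted p = 0.0457). These were 2 of 14 alternatives against wild type. Without wild-type replicate 3 the value was -0.83 (edgeR adjusted p = 0.234). Glce as a whole was lower in Lin28a-induced than in no-Cre libraries by a smaller amount, at 62.3 ± 1.74 CPM (n = 4) against 72.4 ± 0.703 CPM (n = 3), a log2 fold change of -0.22 ± 0.05 (edgeR adjusted p = 0.0344).

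Mir5125, Mir1191 and Mir7-1 passed in no comparison. Mir5125, in an intron of the splicing factor gene Srrm2, averaged 1.81 ± 0.398 CPM (n = 4) in Lin28a-induced, 1.64 ± 0.251 CPM (n = 3) in no-Cre and 1.70 ± 0.56 CPM (n = 3) in wild-type libraries. Mir1191, in an exon of BC024978, averaged 0.673 ± 0.131 CPM (n = 4) in Lin28a-induced, 0.647 ± 0.087 CPM (n = 3) in no-Cre and 0.497 ± 0.118 CPM (n = 3) in wild-type libraries. Mir7-1, in an intron of Hnrnpk and one of the loci that make miR-7a, a microRNA of neurons and endocrine cells, held 14 to 22 counts in Lin28a-induced, 14 to 20 in no-Cre and 2 to 13 in wild-type libraries. Wild-type replicate 1, at 2 counts, set that low end. Scaled, Mir7-1 spanned 0.407 to 0.639 CPM in Lin28a-induced, 0.365 to 0.596 CPM in no-Cre and 0.0795 to 0.597 CPM in wild-type libraries, so the groups overlapped. Differences of these 3 loci lay between -0.05 and 0.43 on the log2 scale in the 3 comparisons, with standard errors of 0.26 to 0.52.

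Among the loci with fewer reads, Mir3091 lies in an intron of the ribosomal protein gene Rps21 and held 8, 3, 8 and 6 counts in Lin28a-induced libraries, 4, 1 and 3 in no-Cre libraries and 1, 2 and 6 in wild-type libraries. Mir483, in an intron of the growth factor gene Igf2, held 1, 4, 0 and 4 counts in Lin28a-induced, 3, 10 and 3 in no-Cre and 0, 1 and 2 in wild-type libraries. Mir763, in an intron of Hmga2, a let-7 target, held 1, 8, 1 and 3 counts in Lin28a-induced, 3, 9 and 4 in no-Cre and 0, 2 and 0 in wild-type libraries. All 3 overlapped between Lin28a-induced and wild-type libraries. Igf2 itself stood at 1280 ± 70.5 CPM (n = 4) in Lin28a-induced, 1580 ± 14.7 CPM (n = 3) in no-Cre and 2020 ± 223 CPM (n = 3) in wild-type libraries, and its hairpin was highest in a no-Cre library.

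**Figure D3:**
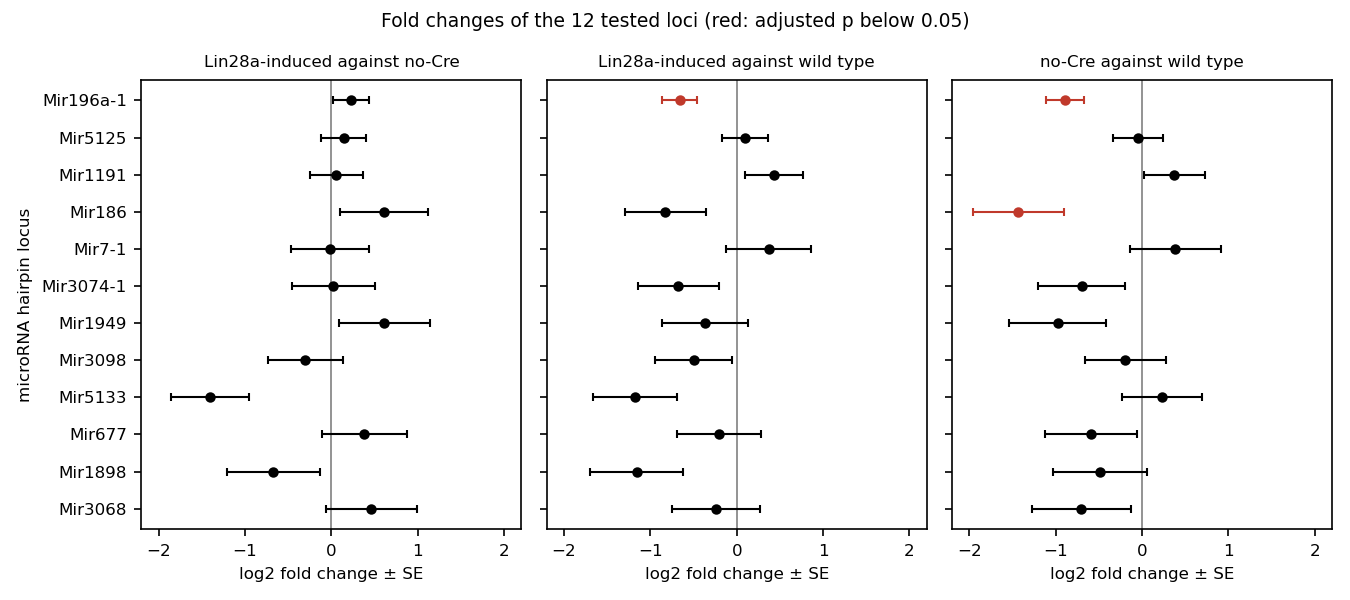
Log2 fold change with standard error of the 12 tested microRNA hairpin loci in the 3 comparisons, red where the edgeR adjusted p is below 0.05. None is red for Lin28a-induced against no-Cre, Mir196a-1 is red at -0.66 for Lin28a-induced against wild type, and Mir196a-1 at -0.89 and Mir186 at -1.43 are red for no-Cre against wild type.

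The comparisons with wild type share the 3 wild-type libraries, so each is given with its own values. Lin28a-induced libraries had 0 higher and 1 lower locus of the 12, Mir196a-1, against 49.3% of all genes called. With all 36 loci fitted, Mir196a-1 was again lower, and Mir451 was called higher, against 42.0% of genes. Mir451 entered the set through its counts outside wild type, so its place in the counts against wild type is a description and no result. The median log2 fold change was -0.43 over the 12, beside -0.02 over all genes, and -0.19 over the 36, beside -0.01 over the genes of that fit. The groups did not overlap for Mir421 and Mir5133, lower, and for Mir451, higher, beside 43.6% of genes. Mir421 lies in an intron of Ftx, a long noncoding RNA of the X-inactivation centre, and held 2, 4, 0 and 3 counts in Lin28a-induced, 2, 2 and 1 in no-Cre and 6, 4 and 6 in wild-type libraries. It passed in neither comparison with wild type (edgeR adjusted p = 0.0822 for Lin28a-induced against wild type and 0.0674 for no-Cre against wild type). Its host Ftx was lower in both comparisons, at 9.21 ± 1.17 CPM (n = 4) in Lin28a-induced, 9.88 ± 1.68 CPM (n = 3) in no-Cre and 20.7 ± 3.08 CPM (n = 3) in wild-type libraries (-1.17 ± 0.14 and -1.07 ± 0.15, edgeR adjusted p = 1.44e-05 and 8.61e-05).

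No-Cre libraries had 0 higher and 2 lower loci of the 12 against wild type, Mir196a-1 and Mir186, where 42.5% of all genes were called. Of the 36, Mir196a-1 and Mir186 were lower and Mir451, with the same limit, was called higher, against 36.0% of genes. The median was -0.54 over the 12, beside -0.02 over all genes, and -0.45 over the 36, beside -0.01 over the genes of that fit. The groups did not overlap for Mir196a-1, Mir3074-1 and Mir421, lower, and for Mir451, higher, beside 46.6% of genes. Mir3074-1 lies on the minus strand in an intron of Fancc, a DNA repair gene. It overlaps 68 bases of Mir24-1 on the other strand and lies 414 bases from Mir27b, a further locus of the 36. It held 23, 12, 6 and 10 counts in Lin28a-induced, 14, 13 and 11 in no-Cre and 22, 10 and 12 in wild-type libraries, and it passed in no comparison. It also lies opposite an exon of 2010111I01Rik, the gene with Mir27b in an exon, which was lower than wild type in both other groups (-0.62 ± 0.08 for Lin28a-induced and -0.35 ± 0.08 for no-Cre, edgeR adjusted p = 1.88e-05 and 0.00358).

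Mir186, called lower in no-Cre than in wild-type libraries, lies in an intron of Zranb2, a splicing factor gene, at chr3:157544279-157544349 on the plus strand. It held 20, 22, 19 and 19 counts in Lin28a-induced replicates 2 to 5, 13, 14 and 12 in no-Cre replicates 6 to 8, and 10, 53 and 13 in wild-type replicates 1 to 3. The no-Cre libraries stood at 0.339 to 0.417 CPM, close to 0.398 and 0.597 CPM in wild-type replicates 1 and 3, while wild-type replicate 2 stood far above at 2.15 CPM. The difference between no-Cre and wild type was -1.43 ± 0.53 (edgeR adjusted p = 0.0429) with this library and -0.34 (adjusted p = 0.563) without it. The call was also lost without no-Cre replicate 6, 7 or 8 (-1.33, -1.48 and -1.47, edgeR adjusted p = 0.123, 0.0902 and 0.0911) and in a fit of only these groups (-1.44, adjusted p = 0.0934). For Lin28a-induced against wild type it was -0.83 ± 0.47 (edgeR adjusted p = 0.162) with the library and 0.26 (adjusted p = 0.624) without it. The highest count of Mir3058, 32, of Mir1970, 12, and of Mir1943, 8, also fell in wild-type replicate 2. Outside that library Mir3058 held at most 12 counts, Mir1970 at most 5 and Mir1943 at most 4. Mir3058 and Mir1943 lie in introns of Nudt4 and Tmem184b on the same strand, and Mir1970 lies in an intron of Gprasp1 on the opposite strand.

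Mir451 was detected in the Lin28a-induced and no-Cre libraries and almost undetected in wild type. Its product, miR-451, belongs to maturing red blood cells, and its hairpin is known to be cut by Ago2 and not by Dicer. Mir451 lies at chr11:78073170-78073241 on the plus strand, 99 bases from Mir144, with which it is co-transcribed. It held 2, 7, 10 and 19 counts in Lin28a-induced replicates 2 to 5, 18, 9 and 6 in no-Cre replicates 6 to 8, and 1, 0 and 0 in wild-type replicates 1 to 3. Every library of both other groups lay above every wild-type library in CPM, and Lin28a-induced replicate 2 was the closest to wild type, at 0.066 CPM. In the fit of genes with at least 20 counts, Mir451 had a log2 value of 3.95 ± 1.07 for Lin28a-induced against wild type (edgeR adjusted p = 0.00773) and of 4.18 ± 1.08 for no-Cre against wild type (edgeR adjusted p = 0.00732). These sizes are loose, since wild type holds 1 count. Without 1 library or with another setting they ran from 3.47 to 6.12 for Lin28a-induced and from 3.69 to 6.35 for no-Cre, with the highest value of each from the fit without wild-type replicate 1, which leaves wild type at 0. The ratio of pooled counts per library size was 20 for Lin28a-induced over wild type (95% exact conditional binomial interval 3.38 to 811) and 23.4 for no-Cre over wild type (3.91 to 951), and these intervals cover counting error only. Lin28a-induced and no-Cre libraries did not differ at the threshold (-0.23 ± 0.61, edgeR adjusted p = 0.932). Mir451 met the count minimum through its counts outside wild type, 38 in Lin28a-induced and 33 in no-Cre libraries, so its difference from wild type is bound up with the rule that chose it and is a description. Mir144, below the minimum, also had its reads outside wild type, with 0, 0, 2 and 4 counts in Lin28a-induced, 4, 3 and 2 in no-Cre and 0, 0 and 0 in wild-type libraries. Its Lin28a-induced replicates 2 and 3 were at 0 like wild type, so those groups overlapped.

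Red blood cell genes did not share the layout of Mir451 as a sum, of which Hbb-y alone held 1250175 of 1916086 counts. The 10 markers together stood at 3750 to 6150 CPM in Lin28a-induced, 5660 to 9560 CPM in no-Cre and 2760 to 8100 CPM in wild-type libraries, so the groups overlapped, and none of the 10 was at 0 in all libraries. In each comparison with wild type, 4 of the 10 were higher and 1 was lower. Of all genes, 49.3% were called for Lin28a-induced and 42.5% for no-Cre against wild type. The higher ones were Hba-a2, Hba-x, Hbb-bh1 and Slc4a1, and the lower one was Hbb-bs. Slc4a1, which is not a globin gene, stood at 96.7 to 174 CPM in Lin28a-induced, 146 to 248 CPM in no-Cre and 25.2 to 56.4 CPM in wild-type libraries. Hbb-bs averaged 37.8, 53.6 and 311 CPM in the same order. Several globin genes are near-identical copies, between which the counting could split reads, so their single values are uncertain. Ank1, the red cell ankyrin gene that hosts another erythroid microRNA, stood at 17.8 ± 4.85 CPM (n = 4) in Lin28a-induced, 24.4 ± 6.11 CPM (n = 3) in no-Cre and 2.97 ± 0.752 CPM (n = 3) in wild-type libraries, higher than wild type by 2.60 ± 0.30 and 3.05 ± 0.31 (edgeR adjusted p = 7.5e-05 and 4.75e-05). The part of red blood cells in the Mir451 values was not tested.

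Mir122a, Mir143 and Mir100 had nearly all of their reads in Lin28a-induced libraries, and they met the count minimum through that group alone, so their difference from the other groups is a description. Mir122a, the locus of the liver microRNA miR-122, held 47 counts in Lin28a-induced replicate 2 and 0 in each of the other 9 libraries. Over the groups it was at least 11.6-fold higher than in no-Cre and at least 8.25-fold higher than in wild type, with groups at 0 set to 3 counts over the group, but 1 library carries both values. Mir143, whose product is abundant in smooth muscle, held 7, 3, 13 and 0 counts in Lin28a-induced, 0, 0 and 0 in no-Cre and 0, 1 and 0 in wild-type libraries, at least 5.7-fold higher than in no-Cre. Mir100 held 6, 6, 10 and 0 counts in Lin28a-induced, 0, 0 and 0 in no-Cre and 0, 1 and 0 in wild-type libraries, at least 5.45-fold higher than in no-Cre. Lin28a-induced replicate 5 thus had no read at any of the 3 loci. In the fit of all 36, none passed (edgeR adjusted p of 0.626, 0.142 and 0.128 against no-Cre for Mir122a, Mir143 and Mir100). Mir148a, below the minimum, was alike, with 15, 0, 4 and 0 counts in Lin28a-induced libraries and 0 elsewhere.

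Marker genes of liver and smooth muscle were set beside Mir122a and Mir143, and their part in these counts was not tested. The 10 liver markers, listed after the values were seen, summed to 52, 932, 26 and 50 counts in Lin28a-induced replicates 2 to 5, 1269, 62 and 102 in no-Cre replicates 6 to 8 and 24, 1350 and 79 in wild-type replicates 1 to 3. The library with 47 Mir122a counts held 4 counts of Afp and 2 of Alb, while Lin28a-induced replicate 3, no-Cre replicate 6 and wild-type replicate 2, with 681, 912 and 1032 counts of Afp, held no Mir122a count. The 10 smooth muscle markers, also listed afterwards, summed to 84.7 to 105 CPM in Lin28a-induced, 91.9 to 107 CPM in no-Cre and 100 to 158 CPM in wild-type libraries, and Lin28a-induced replicate 5, with no Mir143 count, had the highest sum of its group. This sum joins genes that went opposite ways. Of the 9 tested, 2 were higher and 3 lower in each comparison with wild type, beside 49.3% and 42.5% of all genes called. Myocd averaged 12.4 CPM in Lin28a-induced, 18.8 CPM in no-Cre and 1.53 CPM in wild-type libraries. Tagln averaged 14.1, 13.3 and 46.6 CPM in the same order. Mir100 heads a cluster with a let-7 gene: Mirlet7a-2 lies 5211 bases downstream and Mir125b-1 50421 bases downstream on the same strand. Mirlet7a-2 held no count in any library and Mir125b-1 held 1 in all.

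**Figure D4:**
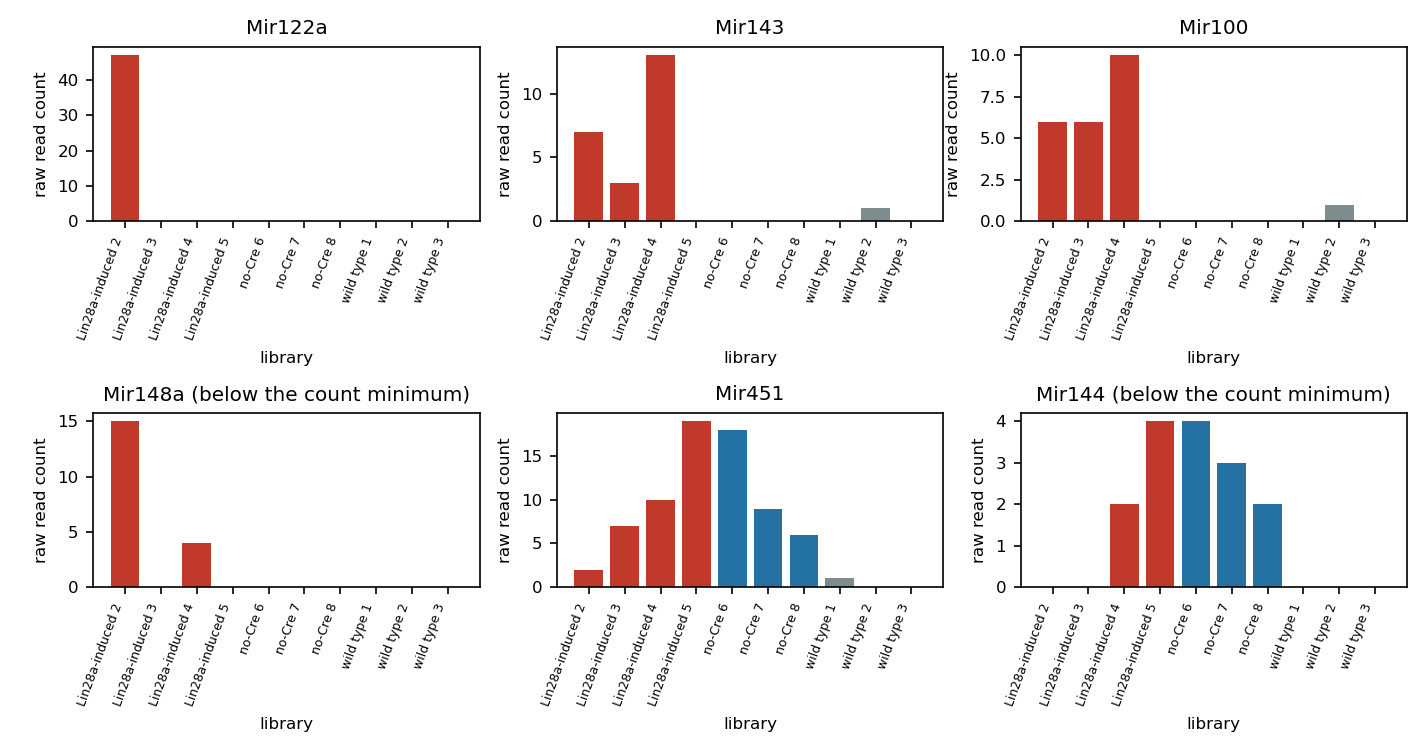
Raw read counts by library (Lin28a-induced red, no-Cre blue, wild type grey) of Mir122a, Mir143, Mir100 and Mir451, and of Mir148a and Mir144, which fall below the count minimum; each panel has its own count axis. Reads of Mir122a, Mir143, Mir100 and Mir148a lie almost wholly in Lin28a-induced libraries, while Mir451 and Mir144 have reads in Lin28a-induced and no-Cre libraries and at most 1 in a wild-type library.

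Of the 12 tested loci, 10 lie inside a gene on the same strand that was tested as well. The host genes moved little: their log2 fold changes ran from -0.22 to 0.16 for Lin28a-induced against no-Cre, from -0.39 to 0.50 for Lin28a-induced against wild type and from -0.53 to 0.33 for no-Cre against wild type. The hairpins inside them ran from -1.41 to 0.61, from -1.18 to 0.43 and from -1.43 to 0.39 in the same comparisons, with far larger standard errors. Hosts that passed numbered 1, 2 and 4 of the 10, beside 2.91%, 49.3% and 42.5% of all genes. Fancc was higher than wild type in both other groups (0.50 ± 0.09 for Lin28a-induced and 0.33 ± 0.10 for no-Cre, edgeR adjusted p = 0.00075 and 0.0173), while its hairpin Mir3074-1 stood at -0.68 ± 0.47 and -0.70 ± 0.51. Alkbh1, which encodes a nucleic acid demethylase, was lower (-0.39 ± 0.07 and -0.53 ± 0.08, edgeR adjusted p = 0.000591 and 0.000158), and its hairpin Mir3068 stood at -0.24 ± 0.51 and -0.70 ± 0.57. Zranb2, the host of Mir186, was lower in no-Cre than in wild-type libraries (-0.21 ± 0.07, edgeR adjusted p = 0.0228), and there Glce was higher (0.19 ± 0.05, edgeR adjusted p = 0.011).

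**Figure D5:**
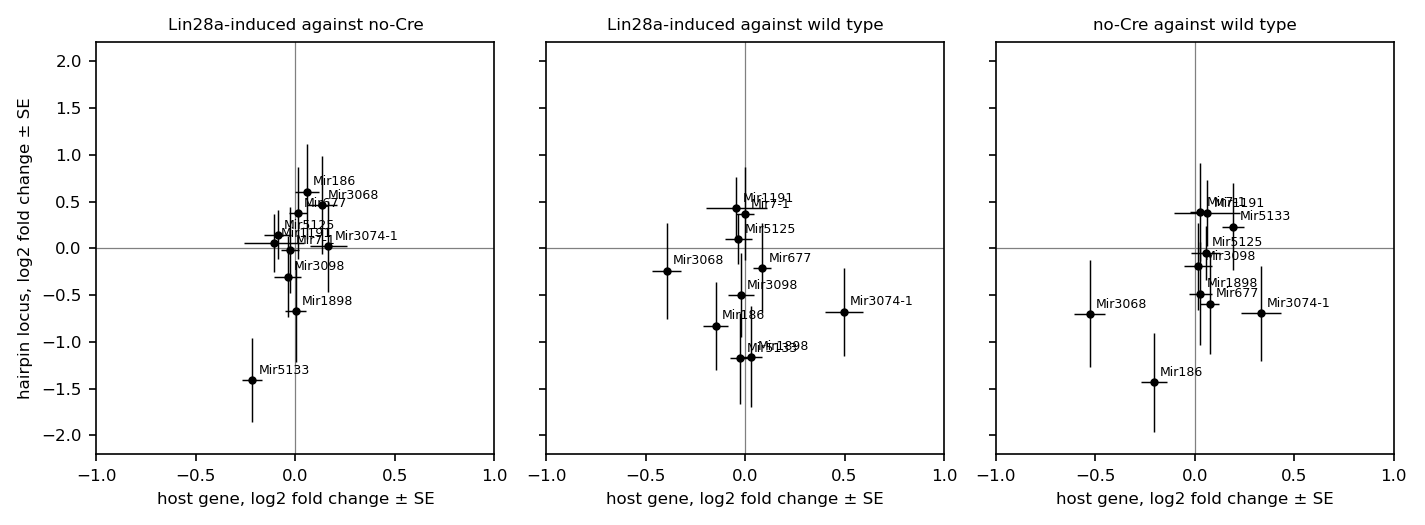
Log2 fold change of 10 tested hairpin loci (vertical, with standard error) against that of the gene they lie in (horizontal, with standard error), in the 3 comparisons. Host genes stay between -0.53 and 0.50, and the hairpins spread from -1.43 to 0.61 with wide error bars.

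Several microRNA groups of the embryo were almost unread at their hairpins. The Mir17-92 cluster and its paralogs, which drive proliferation, had 14 of 15 rows at 0 and 3 counts in all. Mir17hg, the primary transcript of the Mir17-92 cluster, was nevertheless detected at 41.0 ± 8.5 CPM (n = 4) in Lin28a-induced, 27.7 ± 3.09 CPM (n = 3) in no-Cre and 51.1 ± 10.3 CPM (n = 3) in wild-type libraries. Mir17hg was lower in no-Cre than in wild-type libraries (-0.89 ± 0.19, edgeR adjusted p = 0.00495) and did not pass in the other comparisons (0.57 ± 0.18, adjusted p = 0.144, for Lin28a-induced against no-Cre and -0.32 ± 0.18, adjusted p = 0.162, against wild type). In the imprinted Dlk1-Dio3 region, 39 of 49 microRNA rows were at 0, the 49 held 33 counts in all, and none reached the minimum. Of 12 pluripotency microRNA rows 8 were at 0, of 7 epithelial rows 6, of 8 muscle rows 5, and none of these groups had a locus among the 36. The p53 response list gave Mir143 and Mir215, the neural list Mir7-1, and the red blood cell list Mir451 and Mir3074-1. Mir215, which shares a primary transcript with Mir194-1, 195 bases away, held 7, 1, 1 and 3 counts in Lin28a-induced, 4, 6 and 0 in no-Cre and 2, 0 and 0 in wild-type libraries.

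Among genes that make and use microRNAs, 3 of 10 were higher and 1 lower in Lin28a-induced than in no-Cre libraries, where 2.91% of all genes were called. Dicer1, the Dicer gene, stood at 501 against 384 CPM (0.38 ± 0.08, edgeR adjusted p = 0.0249), Tarbp2, its partner, at 46.8 against 35.4 CPM (0.40 ± 0.07, edgeR adjusted p = 0.00756), and Dgcr8 at 86.2 against 75.5 CPM (0.19 ± 0.05, edgeR adjusted p = 0.0461). Ago4 was lower, at 9.81 against 13.8 CPM (-0.49 ± 0.11, edgeR adjusted p = 0.0308). Against wild type, 6 were higher and 1 lower in Lin28a-induced libraries, and 3 were higher and 1 lower in no-Cre libraries, beside 49.3% and 42.5% of all genes called in either direction. The lower gene was Prkra, a further Dicer partner, in both. Drosha was higher in both, at 0.65 ± 0.08 in Lin28a-induced and 0.48 ± 0.09 in no-Cre libraries (edgeR adjusted p = 3.1e-05 and 0.000823). Of 20 tested microRNA host genes, 0 were higher and 2 lower for Lin28a-induced against no-Cre, the imprinted genes H19 and Igf2, whose values were -0.46 ± 0.09 and -0.31 ± 0.07 (edgeR adjusted p = 0.0233 and 0.0252). Against wild type, 4 hosts were higher and 8 lower in Lin28a-induced libraries, and 4 were higher and 7 lower in no-Cre libraries, beside the same 49.3% and 42.5% of all genes.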

How the data were processed

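The deposited table holds raw counts of reads per gene symbol, 1 column per library, with no normalization. Per the labels' protocols, total RNA was made into directional libraries and sequenced as single reads of 75 bases. Per the submitters' processing notes, STAR 2.3.1z4, featureCounts and DESeq2 were used with mm10; the annotation release, strand setting and treatment of multiply aligned reads were not given in the sources used here. From these counts, genes were filtered with filterByExpr, TMM-scaled and tested with edgeR 4.0.16 (quasi-likelihood, robust, 3 group coefficients, all 10 libraries) in R 4.3.3. P-values were adjusted by Benjamini-Hochberg across every gene of a fit, with a threshold of 0.05. Standard errors are |log2 fold change|/√F. A second fit took all genes of at least 20 counts. A group at 0 was set to a floor of 3 counts. The scripts were tested on simulated data. Alternatives were DESeq2 1.42.0, its size factors, other filters, only the groups compared, a replicate block, each library left out and, chosen after seeing the data, libraries without mitochondrial and globin genes. Locations come from GENCODE M21, in which 35 of 36 loci were placed, 2 by an older symbol. Sequences come from RefSeq, with the loci on chromosome 18 left out. The loci and gene lists were chosen with earlier results of these data known. Named are called loci, most of the 20 with the highest CPM, some of their hosts, up to 3 per list and those at the count minimum. Of those 20, Mir3098, Mir677, Mir1898, Mir378b, Mir697 and Mir343 are shown only in figures. Other genes, and loci named for layout or neighbourhood, were chosen after their values were seen.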

Additional observations from a re-analysis of the deposited data

Results flagged for a closer look

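Within the 4 Lin28a-induced libraries, 2 of the 36 loci had a library far from the others, and chance alone flags about 1 in 20 groups. Mir122a stood at 1.55 CPM (47 counts) in Lin28a-induced replicate 2 and at 0 in the other Lin28a-induced libraries, so its gap to the nearest library was the whole range of the group. Mir5136, on the minus strand within an intron of Lbhd1 on the plus strand, stood at 0 CPM in Lin28a-induced replicate 5 with 0 counts. The other Lin28a-induced libraries held 3 counts each, and the gap was 0.88 of the range, so a difference of 3 counts set this flag.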

How the results depend on the processing

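For Lin28a-induced against no-Cre, 476 genes were called in all. DESeq2 called 993, a fit of only these groups 1791, and fits without 1 library 104 to 304. No locus was called in any of these but the fit of only these groups, which called 1. For Lin28a-induced against wild type, 8050 genes and 1 locus were called. Loci called numbered 2 with no filter and 2 with at least 20 counts, and 1 to 3 without 1 library. These groups share the replicate numbers 2 and 3. Deviations of same-numbered libraries from their group means had a correlation of -0.0789. With 2 libraries per group this value is the same for both numbers by construction, so it cannot show whether the libraries are paired. In those 4 libraries the replicate block gave 3819 genes and 0 loci, and the same libraries without it 2619 genes and 0 loci. The cause of these shifts was not tested, beyond fewer libraries in the fit. For no-Cre against wild type, 2 loci were called, 1 with a filter of 1 CPM in 3 libraries, 1 with only these groups and 1 to 3 without 1 library.

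Among the loci recomputed, the following turned in sign. Without 1 library, Mir1191 against no-Cre ran from -0.07 to 0.15, below 0 without Lin28a-induced replicate 5 or no-Cre replicate 8 (-0.04). Mir5125 against wild type ran from -0.14 to 0.35 for Lin28a-induced, below 0 without wild-type replicate 1 or Lin28a-induced replicate 2 (-0.01), and from -0.28 to 0.21 for no-Cre, above 0 without wild-type replicate 2 or no-Cre replicate 6 (0.06). Mir451 against no-Cre ran from -0.69 to 0.19, above 0 without no-Cre replicate 6 or Lin28a-induced replicate 2 (0.07). Mir186 for Lin28a-induced against wild type ran from -1.22 without wild-type replicate 1 (adjusted p = 0.0322) to 0.26 without wild-type replicate 2. Depth is low at the loci other than Mir196a-1 and Mir5125, with 20 to 195 counts each; the standard errors of those tested were at least 0.31.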
